A study of Mus musculus with 2 samples.

Results

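The mature B cell identity genes are 9 genes that B lymphocytes use to build, tune and maintain their antigen receptor: Cd79a, Cd79b, Cd22, Cr2, Blk, Bank1, Pax5, Ebf1 and Vpreb3. They were taken by gene name from a table of 54532 mouse genes, and 9 of 9 names were found, each in a single entry. The study compared atherosclerosis-prone mice with a model of Phlegm-Dampness Retention (the PDR group) and a model of Spleen and Kidney Yang Deficiency (the SKYD group), which are syndromes of traditional Chinese medicine. All mice are described as male ApoE-/- animals on a C57BL/6J background, and their age is given as 6 weeks. PDR mice received a high-fat diet for 4 weeks. SKYD mice received propylthiouracil, a drug that blocks thyroid hormone synthesis, by gavage at 10 mg/kg per day for 4 weeks and then the high-fat diet for 2 weeks. Syndrome, drug, length of diet and age at sampling therefore cannot be told apart. Cells of the aorta were sorted on F4/80 and CD11b, which macrophages and related myeloid cells carry on their surface, and each group's library pooled cells from 5 mice. With 1 library in each group, no difference given here has a replicate check and no p-value was computed.

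Levels are FPKM, which are reads scaled by the length of the gene and the size of the library. Whole reads were recovered from these values, and on genes they sum to 23086889 for PDR and 25427863 for SKYD. Intervals are exact 95% intervals for reads (Poisson) or for the split of a gene's reads between the libraries (Clopper-Pearson), and they cover counting error only. A ratio is FPKM in PDR divided by FPKM in SKYD. A gene counts as more than 2-fold higher when log2(FPKM + 1) differs by more than 1 between the libraries and the mean FPKM is at least 1. The genes with such a mean are called tested genes, and there were 10399.

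The B cell receptor is a membrane immunoglobulin that signals through the paired chains CD79A and CD79B, since the immunoglobulin itself has almost no cytoplasmic tail. Co-receptors set the threshold of this signal, kinases and scaffold proteins carry it inward, and the transcription factors EBF1 and PAX5 switch on and hold the B cell programme. In atherosclerotic mice B cells are found mainly in the adventitia of the aorta and in nearby lymphoid tissue, and a sort on macrophage proteins is meant to leave them out.

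The labelled cell type was checked first. The F4/80 gene Adgre1 had an FPKM of 87.3 in PDR and 93.3 in SKYD, and the CD11b gene Itgam had 8.84 and 14.4. Of the windows of 100 bases in Itgam transcripts, 64.3% also occur in the annotated gene Gm49368, so the level of Itgam is uncertain. Of 15 macrophage markers, 15 were tested, none was at 0 in either library, and together they took 3.40% of reads in PDR and 6.31% in SKYD. Macrophage RNA was therefore present in both libraries, and so was RNA of B cell genes, which the labels do not mention. The 9 identity genes had 55208 reads in the PDR library, or 0.239% of its reads (95% interval 0.237% to 0.241%). In the SKYD library they had 14090 reads, or 0.0554% (95% interval 0.0545% to 0.0563%). The share was 4.32 times as large in PDR. In bulk RNA, fewer B cells and less of these RNAs per B cell cannot be told apart. Apoe, the gene named as knocked out, had an FPKM of 345.2 in PDR and 67.7 in SKYD. Values per gene do not show which part of it the reads cover, so the knockout label was not tested.

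Of the 9 genes, 6 were tested (Cd79a, Cd79b, Cd22, Blk, Bank1 and Vpreb3), and 6 of these 6 were more than 2-fold higher in PDR, against 7.38% of all tested genes. None was more than 2-fold higher in SKYD, where the share of all tested genes was 6.91%. The other 3 had a mean FPKM under 1, which was 0.962 for Cr2, 0.517 for Ebf1 and 0.11 for Pax5. FPKM was higher in PDR for 9 of 9 genes, although for Pax5 the counting interval of the ratio includes 1. The median difference of the 9 genes in log2(FPKM + 1) was 1.89, beside -0.0035 for all tested genes. The genes were listed with earlier results of these libraries known, so these counts describe the list and do not test it.

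**Figure D1:**
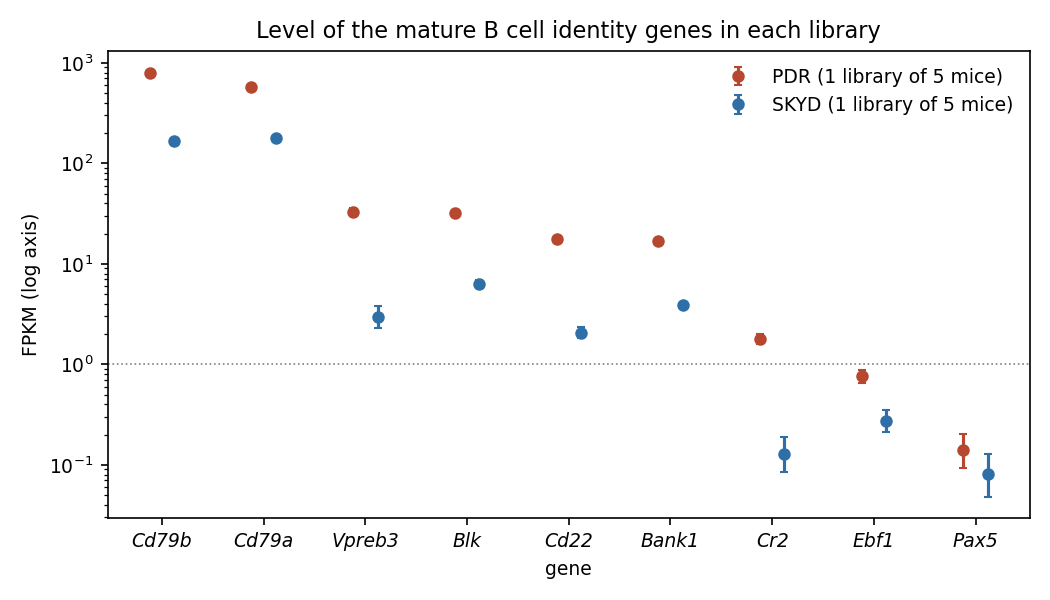
FPKM of each of the 9 genes in the PDR library (red) and the SKYD library (blue) on a log axis, with exact 95% Poisson intervals, which are smaller than the points for the abundant genes. The dotted line marks an FPKM of 1. Levels in PDR run from 802.1 for Cd79b to 0.139 for Pax5.

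The signalling chains of the receptor were by far the most abundant of the 9 genes. Cd79b (ENSMUSG00000040592, chromosome 11 from 106311341 to 106314762 of GRCm38, minus strand) had 26961 reads in PDR and 6012 in SKYD. Its FPKM was 802.1 in PDR and 168.1 in SKYD, a ratio of 4.77 (95% interval 4.64 to 4.91). Cd79a (ENSMUSG00000003379, chromosome 7 from 24897381 to 24902197, plus strand) had 19916 reads in PDR and 6493 in SKYD. Its FPKM was 582.0 and 178.3, a ratio of 3.26 (95% interval 3.17 to 3.36). In FPKM, Cd79b ranked 64th and Cd79a 99th of 22046 protein-coding genes in the PDR library, and 419th and 399th in the SKYD library. The ratios of the chains differed beyond counting error, since their intervals do not overlap, but without replicates the error between libraries is unknown. Cd79b had 1.38 times the FPKM of Cd79a in PDR and 0.943 times in SKYD, so their order of level was opposite in the libraries. These genes carried 84.9% of the reads of the 9 genes in PDR and 88.8% in SKYD. Of the windows of 100 bases in Cd79a transcripts, 1.77% also occur in the processed pseudogene Gm32220, which had 190 reads in PDR and 52 in SKYD, so a small part of their reads could belong to either gene.

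The co-receptors showed larger ratios than the chains. Cd22 (ENSMUSG00000030577, chromosome 7 from 30865402 to 30880342, minus strand) encodes a sialic acid-binding lectin that dampens receptor signals. It had 2080 reads and an FPKM of 17.6 in PDR, and 260 reads and an FPKM of 2.06 in SKYD, a ratio of 8.51 (95% interval 7.48 to 9.72). Cr2 (ENSMUSG00000026616, chromosome 1 from 195136811 to 195176716, minus strand) encodes complement receptors that lower the threshold for activation. It had 342 reads in PDR and 26 in SKYD, with an FPKM of 1.79 and 0.128. Its ratio of 14.0 (95% interval 9.39 to 21.7) was the highest of the 9 genes, although its mean FPKM lies just under the minimum for testing.

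The promoter of Cd22 is shown because it was the only one among those of the 9 genes that holds the searched EBF-like motif. RefSeq promoters (build GRCm38.p6, from 250 bases before to 50 after the start) were found for 7 of the 9 genes, 8 promoters in all, with 2 for Ebf1 and no entry for Cd79b and Blk. The motif TCCCNNGGG was searched on both strands. The stretch below lies at chr7:30879029-30879133 on the minus strand and ends at the base before the start site. This RefSeq start site lies inside the span of Cd22 given above, not at its end. The capitals mark a pair of overlapping matches, 1 on each strand, whose last base is 39 bases from the start site.
Cd22: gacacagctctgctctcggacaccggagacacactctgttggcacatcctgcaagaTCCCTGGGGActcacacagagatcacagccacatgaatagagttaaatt
The motif occurs in 2154 of 32851 promoters of the same length, or 6.56%. The match describes the letters only, and binding was not measured.

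The kinase and the scaffold gene followed the ratio of Cd79b closely. Blk (ENSMUSG00000014453, chromosome 14 from 63372836 to 63417037, minus strand) encodes a Src-family kinase found mainly in B cells. It had 2047 reads and an FPKM of 32.3 in PDR, and 427 reads and an FPKM of 6.33 in SKYD, a ratio of 5.10 (95% interval 4.59 to 5.68). Bank1 (ENSMUSG00000037922, chromosome 3 from 136053363 to 136326066, minus strand) encodes a scaffold protein that links the receptor to calcium release. It had 2994 reads and an FPKM of 17.0 in PDR, and 723 reads and an FPKM of 3.86 in SKYD, a ratio of 4.41 (95% interval 4.06 to 4.79). Relative to Cd79b in the same library, the FPKM of Blk was 0.0403 in PDR and 0.0377 in SKYD, and that of Bank1 was 0.0212 and 0.023.

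Vpreb3 (ENSMUSG00000000903, chromosome 10 from 75943057 to 75949657, plus strand) encodes a protein related to the surrogate light chain and is expressed in precursor and in mature B cells. It had 665 reads and an FPKM of 33.0 in PDR, and 64 reads and an FPKM of 2.98 in SKYD. Its ratio of 11.1 (95% interval 8.55 to 14.5) came with the largest difference of the 9 genes in log2(FPKM + 1), 3.09, which ranked 59th among the 10399 tested genes from the PDR end. Its promoter is shown because it was the only one of the 8 with the octamer ATTTGCAT, a motif known from immunoglobulin promoters. The stretch lies at chr10:75948199-75948299 on the plus strand and ends before the start site. This RefSeq start site also lies inside the gene span given above. The capitals mark the octamer, whose last base is 37 bases from the start.
Vpreb3: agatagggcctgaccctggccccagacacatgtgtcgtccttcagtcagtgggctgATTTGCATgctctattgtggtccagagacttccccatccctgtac
The octamer, on either strand, occurs in 570 of 32851 promoters of the same length, or 1.74%. The motif GAGGAAGT (ETS-like, both strands) was in none of the 8 promoters and in 3.20% of the 32851.

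The transcription factors of the list were at low levels in both libraries. Ebf1 (ENSMUSG00000057098, chromosome 11 from 44617317 to 45008091, plus strand) had 174 reads in PDR and 67 in SKYD. Its FPKM was 0.759 and 0.275, a ratio of 2.76 (95% interval 2.07 to 3.72). Pax5 (ENSMUSG00000014030, chromosome 4 from 44524757 to 44710487, minus strand) had 29 reads in PDR and 18 in SKYD. Its FPKM was 0.139 and 0.0813, a ratio of 1.71 (95% interval 0.92 to 3.28), so that a difference in Pax5 was not detectable at this depth. The level of Pax5 in FPKM was 1.74e-04 of that of Cd79b in PDR and 4.84e-04 in SKYD. Pax5, Ebf1, Cd22, Bank1 and Vpreb3 overlap other annotated genes, and whether reads were counted by strand is not stated, so reads of such partners on the opposite strand could not be separated. Those partners held at most 11 reads in either library.

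**Figure D2:**
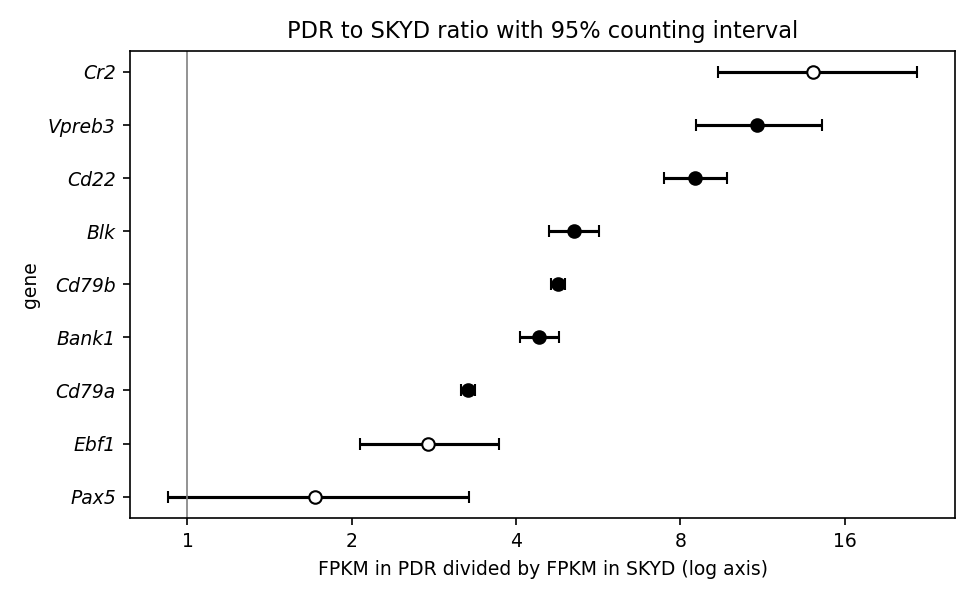
Ratio of FPKM in PDR to FPKM in SKYD for each of the 9 genes on a log axis, with exact 95% intervals for the split of reads. Filled points are tested genes and open points have a mean FPKM under 1. The ratios run from 1.71 for Pax5 to 14.0 for Cr2, and the interval of Pax5 crosses 1.

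The ratios of the 9 genes fell into 3 groups by their counting intervals. Pax5, Ebf1 and Cd79a were lowest, with intervals that overlap each other. Bank1, Cd79b and Blk followed, and Cd22, Vpreb3 and Cr2 were highest. Intervals overlap within each of these groups and between none of them, although counting error is only part of the error between libraries. The order of levels in FPKM also differed. In PDR it was Cd79b, Cd79a, Vpreb3, Blk, Cd22, Bank1, Cr2, Ebf1 and Pax5, where Vpreb3 and Blk, and likewise Cd22 and Bank1, did not differ beyond their Poisson intervals. In SKYD it was Cd79a, Cd79b, Blk, Bank1, Vpreb3, Cd22, Ebf1, Cr2 and Pax5. There Vpreb3 overlapped Bank1 and Cd22, and Cr2 overlapped Pax5. The interval for the FPKM of Ebf1 in SKYD, 0.213 to 0.349, lay above that of Cr2, 0.0838 to 0.188, whereas in PDR the FPKM of Cr2 was higher.

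**Figure D3:**
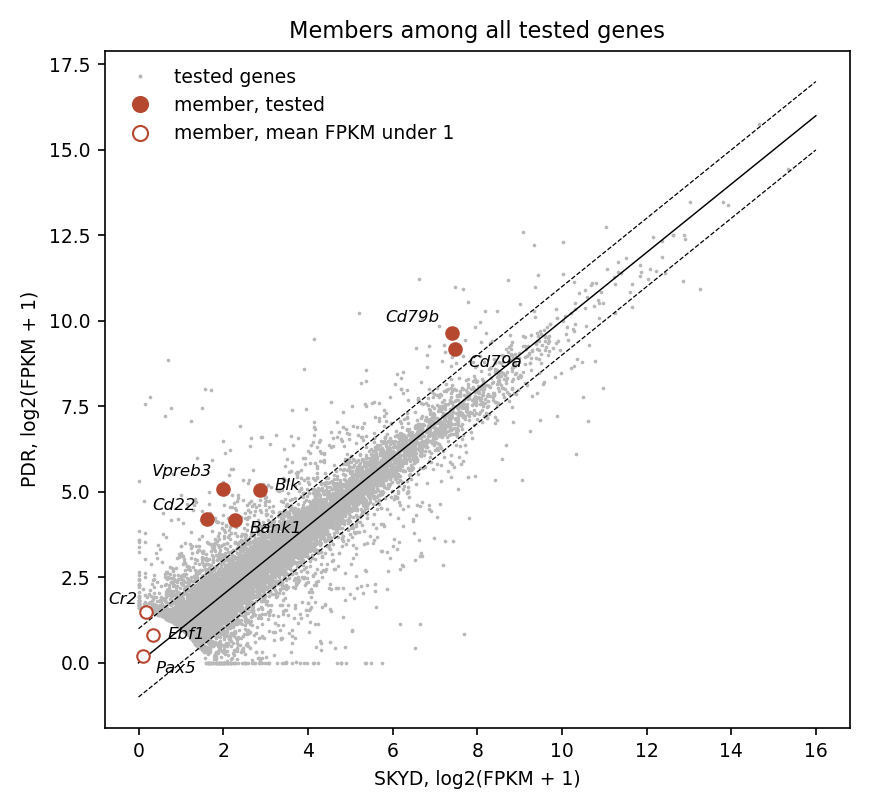
Level of the 10399 tested genes (grey) and of the 9 genes (red) as log2(FPKM + 1), with the SKYD library on the x axis and the PDR library on the y axis. The solid line marks equal levels and the dashed lines a difference of 1. The 6 tested members lie above the upper dashed line, and Ebf1 and Pax5 lie between the dashed lines.

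Of 20 other genes of B cell receptor signalling 17 were tested, 4 were more than 2-fold higher in PDR, none was more than 2-fold higher in SKYD, and the median difference was 0.61. Among those higher in PDR, and chosen after their values were seen, were the adaptor genes Blnk (ratio 4.84) and Pik3ap1 (ratio 3.36) and the Ras activator gene Rasgrp3 (ratio 6.23). The most abundant genes of the list, Cd81 and Lyn, which myeloid cells also express, had ratios of 0.705 and 1.19.

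Among 12 inhibitors and co-receptors, 12 were tested, 6 were higher in PDR by more than 2-fold and 1 in SKYD, with a median difference of 0.97. Fcrl1, an Fc receptor-like gene of B cells, had an FPKM of 17.8 in PDR and 3.35 in SKYD, a ratio of 5.33 (95% interval 4.70 to 6.05). Ptpn6, Fcgr2b and Cd300a, which act in myeloid cells as well, were the highest in mean FPKM and had ratios of 1.63, 0.646 and 1.09. Cd5, a gene of T cells and B-1 cells, was the exception on the SKYD side, with an FPKM of 5.23 in PDR and 17.1 in SKYD.

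A list of 20 other mature B cell genes had 20 tested, 13 more than 2-fold higher in PDR and none in SKYD, with a median difference of 1.2. Tnfrsf13c, which encodes the receptor for the survival factor BAFF, had an FPKM of 80.6 in PDR and 5.22 in SKYD, a ratio of 15.5 (95% interval 13.6 to 17.6). Ms4a1, the CD20 gene, chosen after its value was seen, had 196.4 and 22.5, a ratio of 8.71. Of the 3 genes with the highest mean FPKM in the list, Cd74, the invariant chain of class II molecules, had a ratio of 0.986, Ly6d had 0.98 and Cd24a had 1.62. Other antigen-presenting cells also express Cd74.

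B lineage transcription factors outside the 9 genes had a median difference of 0.28. Of 18 listed, 14 were tested, 4 were higher in PDR by more than 2-fold and 1 in SKYD. Ikzf3, which encodes the lymphoid factor Aiolos, had an FPKM of 7.5 in PDR and 1.84 in SKYD, a ratio of 4.07 (95% interval 3.65 to 4.55). Klf2 had 79.5 in PDR and 192.5 in SKYD, and the myeloid and B cell factor Spi1 (PU.1) had 108.3 and 179.1. Id3, which encodes an inhibitor of E proteins, had 44.3 and 64.1.

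Genes of B cell precursors were read as a separate list. Of 16 pro-B and pre-B cell genes 11 were tested, none was more than 2-fold higher in PDR, 7 were more than 2-fold higher in SKYD, and the median difference was -1.71. Of these 7 genes, 6 had an FPKM under 1 in PDR and were tested only through their level in SKYD. This fixed their direction, though not a 2-fold difference, and neither the count nor the median is support for a direction. The recombinase gene Rag2 had 0 reads in PDR and 2262 in SKYD, and Dntt had 39 and 10953 reads. These genes act in T cell precursors too. The surrogate light chain genes, which are specific to B cell precursors, were near 0. Vpreb1 had 2 reads in PDR and 24 in SKYD, Igll1 had 0 and 15, and Vpreb2 had 0 in both. Flt3, a receptor of early progenitors, had an FPKM of 3.0 and 3.69, and Bst1 had 27.2 and 45.9.

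Lists for B cell subsets differed in how many genes were higher in PDR, and 1 gene can stand in several lists. In the germinal centre and the marginal zone list, 1 gene each of those more than 2-fold higher in PDR had an FPKM under 1 in SKYD. It was tested only through PDR, which fixed its direction, though not a 2-fold difference. Germinal centre genes had 6 of 8 tested genes more than 2-fold higher in PDR, none in SKYD, and a median difference of 1.51. Mef2b had an FPKM of 30.6 in PDR and 2.17 in SKYD, a ratio of 14.1 (95% interval 11.2 to 18.1). Bcl6, the master regulator of the germinal centre stage, was not tested, with 33 reads in PDR and 117 in SKYD, a ratio of 0.3 (95% interval 0.197 to 0.445). Fas, which many cells express, had a ratio of 1.04, and the repair gene Neil1 had 3.0.

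Follicular genes had 4 of 8 tested genes higher in PDR by this rule and 1 in SKYD, with a median of 1.07. Their largest difference was that of the chemokine receptor gene Ccr6, with an FPKM of 22.5 in PDR and 3.59 in SKYD, whereas Ccr7 had a ratio of 1.88. Marginal zone genes had 2 of 7 in PDR, none in SKYD and a median of 0.53, with ratios of 4.22 for Fcrl5, 1.86 for Cd1d1 and 0.547 for Cd9, a gene of many cell types. B-1 genes had 2 of 5 in PDR, 1 in SKYD and a median of 0.02, with ratios of 4.23 for Zbtb32 and 0.859 for Bhlhe40. These lists hold between 7 and 10 genes each.

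Plasma cell genes had 6 of 11 tested genes more than 2-fold higher in PDR, none in SKYD, and a median difference of 1.06. Mzb1, a chaperone gene of antibody-secreting and marginal zone B cells, had an FPKM of 611.7 in PDR and 115.8 in SKYD, a ratio of 5.28, with 49.4% of its windows of 100 bases shared with the annotated gene SPATA24. Jchain, the joining chain of secreted IgM and IgA, had 2483 and 2403, a ratio of 1.03 (95% interval 1.03 to 1.04), and Xbp1 had a ratio of 1.18.

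Immunoglobulin constant genes had 8 of 11 tested genes more than 2-fold higher in PDR, none in SKYD and a median difference of 1.84. The class-switched gene Ighg2c had the largest difference, with an FPKM of 2390 in PDR and 97.1 in SKYD, a ratio of 24.6 (95% interval 23.8 to 25.5), and Ighg2b had a ratio of 11.3. Igkc, the kappa light chain gene, had an FPKM of 55958 and 25888, a ratio of 2.16. Ighm and Igha differed least among the heavy chain genes tested, with ratios of 1.26 and 0.874. Ighd, a marker of mature naive B cells, chosen after its value was seen, had a ratio of 7.49 (95% interval 6.87 to 8.18).

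Set against Cd79b in the same library, the heavy chains shifted in opposite directions. The FPKM of Ighm was 4.60 times that of Cd79b in PDR and 17.4 times in SKYD. For Igha the ratio to Cd79b was 0.553 in PDR and 3.02 in SKYD, and for Jchain it was 3.10 and 14.3. Ighg2c went the other way, at 2.98 in PDR and 0.577 in SKYD. Vpreb3 and Cd22 were also higher relative to Cd79b in PDR, at 0.0411 against 0.0177 and at 0.0219 against 0.0123. Between the libraries, Ighm, Igha and Jchain themselves had ratios of 1.26, 0.874 and 1.03. Their shift against Cd79b therefore lay mostly in Cd79b, whose own ratio was 4.77. The proportions of these transcripts to Cd79b thus differed between the libraries, without a replicate check.

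**Figure D4:**
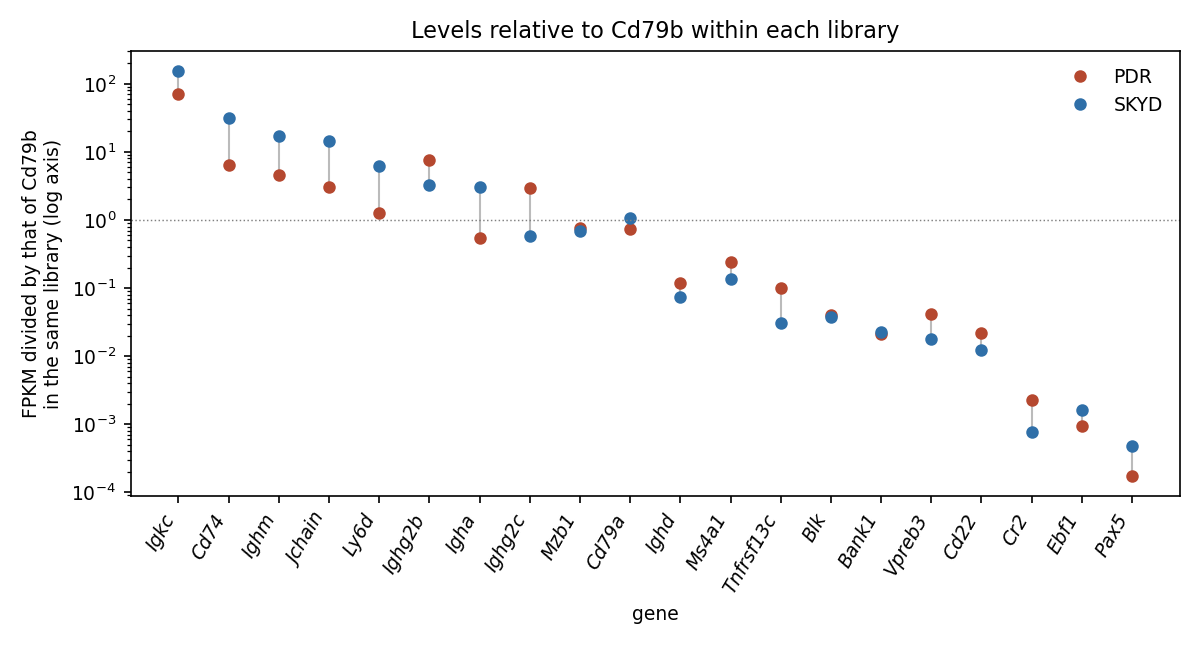
FPKM of the genes shown divided by the FPKM of Cd79b in the same library, on a log axis, for PDR (red) and SKYD (blue). Grey lines join the libraries. Cd74 and Ly6d are also expressed by cells other than B cells. Ighm, Igha, Jchain, Cd74 and Ly6d are higher relative to Cd79b in SKYD, while Ighg2c, Vpreb3, Cd22 and Cr2 are higher in PDR.

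Markers of other cells moved with the comparison, and their part in the differences of the 9 genes was not tested. In the macrophage, T cell and stromal lists, 1 gene each of those more than 2-fold higher in SKYD was under an FPKM of 1 in PDR and was tested only through SKYD. Of 15 macrophage markers 6 were more than 2-fold higher in SKYD and none was in PDR, with a median difference of -0.66. Lyz2 was the most abundant, with an FPKM of 22217 in PDR and 41336 in SKYD, and Fcgr1 had a ratio of 1.47. Of 15 T cell markers 14 were more than 2-fold higher in SKYD and none was in PDR, with a median of -2.36. They took 0.0847% of reads in PDR and 0.575% in SKYD, none was at 0 in either library, and Trbc2 was the most abundant, with an FPKM of 261.4 and 1995. The libraries thus held RNA of both kinds of lymphocyte genes, with B cell identity genes higher in PDR and T cell genes higher in SKYD.

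Genes of another tissue were also higher in PDR. A list of 10 genes of proteins that the liver secretes was added after values were seen, so its count and median describe the list only. Of these, 10 were tested and 9 were higher in PDR by more than 2-fold, against 7.38% of all tested genes. None was higher in SKYD by this rule, and the median difference was 1.81. That of the identity genes was 1.89 over all 9 and 2.22 over the 6 tested. The liver genes took 0.233% of reads in PDR and 0.0709% in SKYD, and none was at 0 in either library. Apoa2, an apolipoprotein gene, was the most abundant, with an FPKM of 792.8 in PDR and 294.5 in SKYD. The albumin gene Alb had 258.0 and 72.8, a ratio of 3.54 (95% interval 3.42 to 3.67). The exception was the transferrin gene Trf, which other cells also express, with a ratio of 0.683.

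Plasmacytoid dendritic cells share Spib, Tcf4 and Ly6d with B cells. Of 10 markers 9 were tested, 1 was more than 2-fold higher in PDR and 4 in SKYD, with a median of -0.10. Of these 4 genes, 3 were under an FPKM of 1 in PDR and tested only through SKYD, so the counts give no direction. The 10 markers took 0.503% of reads in PDR and 0.264% in SKYD. Ly6c2, which monocytes also express, held 79.6% of these reads in PDR and 52.2% in SKYD, and without it the shares were 0.103% and 0.126%, so the direction of the share turned. Ly6d had the highest mean FPKM, and the defining gene Siglech had 39 reads in PDR and 964 in SKYD. Klk1 had 0 reads in PDR and 1067 in SKYD. Follicular dendritic cells carry Cr2 as well. Of 7 markers 6 were found and 3 tested, 1 was higher in PDR and 2 in SKYD by the 2-fold rule, and the median was -1.16. They took 0.00904% of reads in PDR and 0.0139% in SKYD. Cxcl13, the highest in mean FPKM, had 153 reads in PDR and 2061 in SKYD, whereas Clu had 1674 and 678, a ratio of 2.63. The defining genes Madcam1 and Coch were at 0 in PDR with 6 and 11 reads in SKYD. Stromal cells and adipocytes use Ebf1 and its relatives Ebf2 and Ebf3. Of 15 markers 4 were tested, none was higher in PDR and 2 were in SKYD, the median was -0.89, and they took 0.00866% and 0.0273% of reads. Dcn was the most abundant, with 1375 and 5747 reads. Ebf2, Ebf3 and Myh11 had 0 reads in both libraries.

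**Figure D5:**
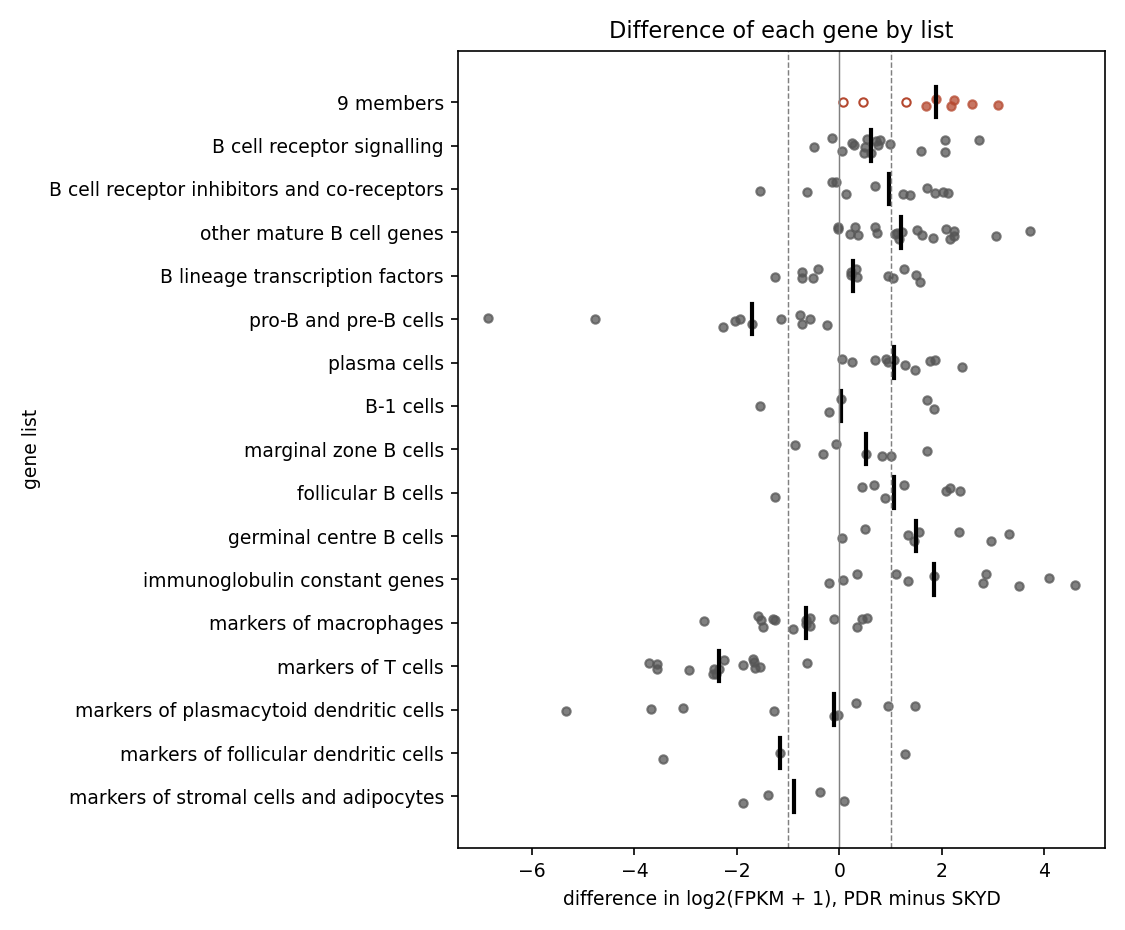
Difference in log2(FPKM + 1), PDR minus SKYD, of each tested gene by list, with the 9 identity genes in red at the top (open circles have a mean FPKM under 1) and black bars at medians. Dashed lines mark differences of 1 and -1. The median was 1.89 for the 9 genes and -2.36 for T cell markers.

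The 9 genes had a median ratio of 4.77, which is that of Cd79b. Among 10430 other protein-coding genes with at least 100 reads in all and reads in both libraries, 185 had a ratio at least as high. The 5 nearest in log2 ratio were Ghr, Cd83, Dapl1, Tnf and Prr5. Cd83, an activation marker of B cells and dendritic cells, had an FPKM of 106.7 in PDR and 22.4 in SKYD, a ratio of 4.76 (95% interval 4.50 to 5.04). The inflammatory cytokine gene Tnf had 279 reads in PDR and 62 in SKYD. Prr5 had 1052 and 236 reads, Dapl1 had 288 and 64, and the growth hormone receptor gene Ghr had 283 and 63. A likeness over 2 libraries is a single ratio.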

How the data were processed

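Total RNA of the sorted cells was sequenced in 1 pooled library per group. The authors aligned reads with TopHat2 2.0.9, counted them with HTSeq 0.6.1 and deposited FPKM. The submitters' notes name mm9, but start and end equal those of GENCODE M21 (GRCm38) for 98.3% of 54409 shared genes and for 9 of 9 identity genes, so positions are given in GRCm38.

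FPKM times gene length gave whole multiples of 1 step in each library (within 0.01 for 100% of genes above 0), which were taken as reads. A count of 0 allows 3 reads, or 1.3e-05% of reads in PDR and 1.18e-05% in SKYD. Differences used a pseudocount of 1, a mean FPKM of at least 1 and a 2-fold limit. Named genes were the 9 identity genes, in each list the 3 tested genes highest in mean FPKM and the tested gene with the largest difference each way, markers at or near 0, and the 5 genes nearest in ratio, and not every gene of this rule is named. The members and lists were chosen with earlier results of these data known, and the list of liver genes was added last. Shared sequence was sought as windows of 100 bases in transcripts of 202 identity or listed genes, and 7 shared over 10%: Itgam, Mzb1, Trbc1, Trbc2, Pirb, Vpreb2 and Cd1d1, whose values are uncertain. Steps were tested on simulated data. Calculations used scipy 1.17.1, pandas 2.3.3 and numpy 2.4.6 under Python 3.11.15, and plots matplotlib 3.10.9. Alternatives covered pseudocounts, filters, scaling and folds.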

Additional observations from a re-analysis of the deposited data

How the results depend on the processing

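The count of identity genes more than 2-fold higher in PDR was 6 with pseudocounts of 0.1 and 0.01, a mean FPKM of at least 5, median centring, scaling by reads outside antigen receptor genes and protein-coding genes only, as in the report, and also at 1.5-fold. Except for median centring and scaling, these settings could not change the count. All 6 tested genes were already past 2-fold with a mean FPKM of at least 9.81, and a lower pseudocount widens their differences. The repeated count of 6 in those settings is therefore no support. Without a filter and after rescaling to TPM the count was 7, and at 4-fold it was 4. The median difference of the 9 genes was 1.89, and it was 2.25 with a pseudocount of 0.1, 2.25 with 0.01 and 1.99 as TPM. These settings lower the pseudocount relative to the values, which by construction widens the differences of low genes. Of 72 differences of single members under these settings, 20 lay outside the counting interval. Their sign could hardly change, since filters leave them as they are and a pseudocount cannot reverse them. Scaling by reads outside antigen receptor genes moved the median of all tested genes by 0.11 and that of the 9 genes to 1.99. It gave 883 genes more than 2-fold higher in PDR and 612 in SKYD, so that PDR held 59.1% of these genes in place of 51.6%. The filter acted on the scaled values and left 10268 tested genes. With the 10399 genes held, a setting chosen after seeing the data, the counts were 886 and 620, or 58.8% in PDR.

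The counts over all tested genes, 767 for PDR and 719 for SKYD at 2-fold, were 464 and 373 at a mean FPKM of at least 5, 194 and 216 at 4-fold, and 1574 and 1562 at 1.5-fold. They were 1057 and 1010 with a pseudocount of 0.1, and 542 and 473 with protein-coding genes only. Fewer genes are tested, or another fold or pseudocount is used, in these settings. No paired analysis was possible because each group had 1 library, and leaving out a library was not possible for the same reason. Depth limits Pax5 most, with 29 and 18 reads.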

Other observations

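The nearest protein-coding genes on either side of the 9 genes were read for comparison. Of 17 such neighbours 8 were tested and 1 was more than 2-fold higher in PDR, where the share of all tested genes was 7.38%. With 8 genes, a count of 1 does not set the neighbours apart from all tested genes. None was more than 2-fold higher in SKYD, and the median difference was -0.05. Rps19, before Cd79a, had a difference of 0.37 in log2(FPKM + 1), and Arhgef1, after it, had -0.03. Cr1l, a complement regulator gene next to Cr2, had an FPKM of 15.1 in PDR and 17.3 in SKYD. The exception was the mitotic kinase gene Melk, next to Pax5, with 6.23 in PDR and 2.21 in SKYD. The neighbours of Cd79b were not tested. Of these, Scn4a had 60 reads in PDR and 7 in SKYD, and Gh had 24 and 7. The microRNA gene Mir5120, which lies within Pax5 on the same strand, had 8 reads in PDR and 0 in SKYD.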
